A study of Mus musculus with 6 samples.

Results

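Conjugation enzymes attach a polar group to drugs, dietary compounds, hormones and lipid products, and carboxylesterases split their esters. The family was taken as every gene measured by a probe set with exactly 1 symbol that belongs to the glutathione S-transferases (Gsta, Gstm, Gsto, Gstp, Gstt, Gstk and the membrane-bound Mgst), the UDP-glucuronosyltransferases (Ugt1, Ugt2 and Ugt3), the sulfotransferases (Sult) or the carboxylesterases (Ces). Of 19938 genes tested, 63 were members: 21 glutathione S-transferases, 10 glucuronosyltransferases, 16 sulfotransferases and 16 carboxylesterases. A further 17 genes of these families, among them all 8 of the Ugt1 cluster that the array annotation lists, were measured only by probe sets that several genes share, and no gene was named from those.

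Mucosa was scraped from the jejunum of 2 groups of mice on the C57/BL background, aged 8 to 10 weeks and fed chow. The first group was the transgenic line ISR2, in which the transcription factor SREBP2, an activator of cholesterol synthesis and uptake genes, is overactive in the intestine. The second was its wild type littermates, and each group had 3 arrays. The labels name neither the promoter behind the transgene nor the animal behind each array. The p-values therefore reflect only how far these arrays spread, and that spread may be technical. All values are log2 expression values made by the authors with RMA, 1 unit being a 2-fold step. A probe set's level holds only for that probe set, so no result rests on the level of one gene against another.

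In the absorptive cells of the small intestine these enzymes meet food compounds and drugs before the blood does. Glutathione S-transferases join glutathione to reactive molecules, glucuronosyltransferases of the endoplasmic reticulum add glucuronic acid, and cytosolic sulfotransferases add sulfate from the donor PAPS. Carboxylesterases of the endoplasmic reticulum cleave drug esters, and some of them in the mouse also cleave triglyceride and cholesteryl ester.

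Srebf2, which encodes SREBP2, stood at 11.02, 10.85 and 11.16 in ISR2 replicates 1, 2 and 3, against 9.04, 9.15 and 9.50 in wild type replicates 1, 2 and 3, a 3.43-fold rise (adjusted p = 0.000298) in the direction of the labels. Pairs of arrays from 1 group correlated at r = 0.978 to 0.991 over all genes, and pairs across groups at 0.970 to 0.982; genes are not independent of each other. Mean levels of 5 stroma and smooth muscle markers varied widely within groups, at 8.36, 9.60 and 8.43 in ISR2 replicates 1, 2 and 3 and 7.64, 10.22 and 8.20 in wild type replicates 1, 2 and 3. The 8 enterocyte markers were strong, with means of 12.03 to 12.15 in ISR2 arrays and 12.30 to 12.38 in wild type arrays. Of the 8, 1 fell (12.5%, against 1.23% of all genes). This was Alpi, the intestinal alkaline phosphatase, whose call was lost in 5 of 6 fits without 1 array (adjusted p up to 0.194). At an unadjusted p under 0.05 in limma were 4 of the 8, all lower in ISR2 arrays. Over all 19938 genes tested, 2618 were at this level, 1675 of them lower and 943 higher in ISR2 arrays. In 5 of the 8, all ISR2 arrays lay below all wild type arrays (62.5%, against 13.9% of all genes). All 5 T cell markers fell (100%, against 1.23% of all genes). Their means were 6.96 to 7.45 in ISR2 arrays against 8.14 to 8.63 in wild type arrays. Of the 5, Cd3g lost its call in 4 of the 6 fits and Cd8a in 3. None of the goblet, Paneth, B cell, myeloid, stroma, liver and pancreatic acinar markers passed in limma; at an unadjusted p under 0.05 were 2 of 4 Paneth, 1 of 4 B cell and 1 of 4 myeloid markers and none of the others. The part of the enterocyte, T cell and stroma differences in the results below was not tested. In scraped tissue, fewer cells of a type and less RNA per cell cannot be told apart.

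Among the 63 conjugation and carboxylesterase genes, 5 rose in ISR2 jejunum and 2 fell at an adjusted p of 0.05. Ces1g, a carboxylesterase, rose 3.62-fold, Sult6b2, a sulfotransferase, 3.29-fold, the mu-class glutathione S-transferases Gstm4 and Gstm6 2.35-fold and 2.06-fold, and the glucuronosyltransferase Ugt2b35 1.51-fold. Gstk1, the kappa-class glutathione S-transferase, was 1.54-fold lower and the sulfotransferase Sult1b1 1.49-fold lower. These calls came to 11.1% of members, against 3.02% of all genes tested; 7.94% of members rose, against 1.79% of all genes, and 3.17% fell, against 1.23%. The median log2 change was 0.07 over the 63 members and -0.06 over all genes. Ces1g, Sult6b2, Gstm4 and Gstm6 kept their calls in each of 16 other fits, whereas Ugt2b35, Gstk1 and Sult1b1 lost theirs in all 6 fits that left out 1 array. With each array centred on its median, 5 members rose and 0 fell.

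**Figure D1:**
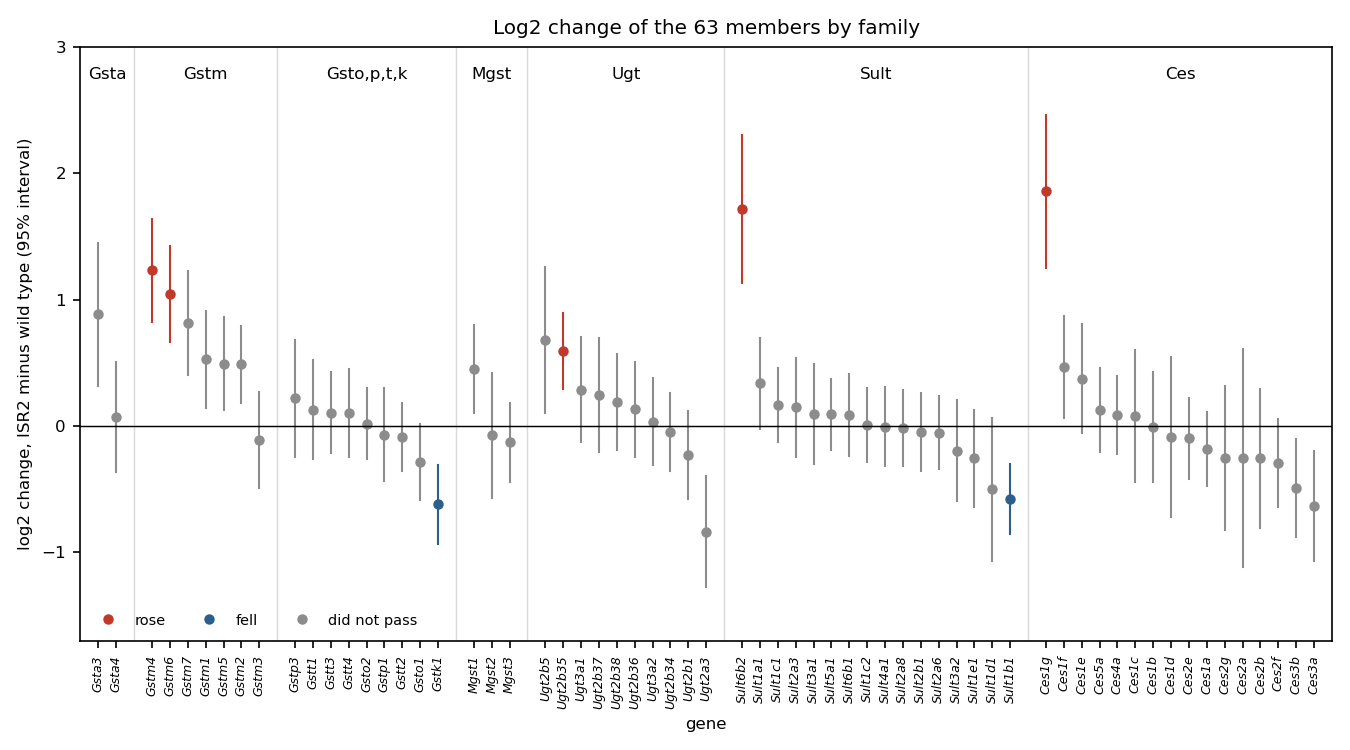
Log2 change (ISR2 minus wild type, vertical axis) of each of the 63 members, grouped by family along the horizontal axis; points are estimates and bars their 95% intervals from limma, red for genes that rose, blue for genes that fell and grey for genes that did not pass. Ces1g at 1.86 and Sult6b2 at 1.72 lie above the rest of their families, and 6 of the 7 Gstm genes lie above 0.

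Complete separation of the groups, with all ISR2 arrays on one side of all wild type arrays, was seen in 18 of the 63 members, or 28.6%, against 19.8% of all genes. It was upward in 11 members (17.5%, against 5.87% of all genes) and downward in 7 (11.1%, against 13.9%). No filter on low values was applied. A mean of at least 5 over the 6 arrays was reached by 52 members, and all 7 calls were among these. The 11 dimmer members, 8 of them sulfotransferases and 3 glucuronosyltransferases, ranged from -0.26 to 0.29 in log2 change, none was separated, and none is shown to be above background.

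The glutathione S-transferases of the mu class were higher in ISR2 mucosa in 6 of 7 measured genes. Of the 7, 2 passed the test, Gstm4 and Gstm6 (28.6% rose, against 1.79% of all genes). Over all 19938 genes tested, 7465 had higher means in ISR2 arrays. Gstm4 was at 10.35, 10.29 and 10.78 in ISR2 replicates 1, 2 and 3, against 9.47, 8.98 and 9.27 in wild type replicates 1, 2 and 3. The lowest ISR2 array lay 0.81 above the highest wild type array, and the log2 change was 1.23 ± 0.18 (SE, 3 arrays per group; 95% interval 0.82 to 1.64; adjusted p = 0.00571). Gstm6 was at 10.34, 10.68 and 10.57 in ISR2 mucosa, against 9.81, 9.34 and 9.31 in wild type mucosa. Its groups did not overlap either, with wild type replicate 1 the nearest to the ISR2 arrays, and it changed by 1.04 ± 0.17 (SE; adjusted p = 0.00997). Without 1 array at a time, the adjusted p of Gstm6 stayed between 0.00856 and 0.0498.

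Gstm7 stood just outside the threshold. It was at 9.92, 9.92 and 10.16 in ISR2 arrays and at 9.58, 8.92 and 9.06 in wild type arrays, a log2 change of 0.81 ± 0.18 (SE; 95% interval 0.40 to 1.23; adjusted p = 0.0509). All ISR2 arrays lay above all wild type arrays, and the gene passed in 7 of 16 other fits, with adjusted p from 0.0167 to 0.179. Without wild type replicate 1 its adjusted p was 0.0170. Gstm1, Gstm5 and Gstm2 had log2 changes of 0.53, 0.49 and 0.49, with adjusted p of 0.198, 0.213 and 0.124, and their 95% intervals lay above 0 before adjustment. In Gstm5 and Gstm2 the groups were separated, while in Gstm1 wild type replicate 1 and the lowest ISR2 array were both at 11.23.

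Gstm3 was the exception among the mu-class genes. It was at 12.33, 12.36 and 12.78 in ISR2 arrays and at 12.77, 12.36 and 12.68 in wild type arrays, so the groups overlapped fully. The log2 change was -0.11 ± 0.17 (SE; 95% interval -0.49 to 0.27; adjusted p = 0.854), and its other probe set gave -0.18. The 7 genes neighbour each other on 1 chromosome in the order Gstm5, Gstm7, Gstm6, Gstm3, Gstm2, Gstm1 and Gstm4, so Gstm3 lies between Gstm6 and Gstm2. Mu-class genes are close copies of each other, and whether their probes share signal was not tested.

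Sequence upstream of the risen genes was read from RefSeq promoter tables of GRCm38.p6, which hold 55 of the 63 members. The 250 bases before the most upstream listed start are shown for the 4 genes that rose in every fit and for Gstm5, the mu-class gene whose window holds a searched motif. Letters are written 5′ to 3′ on the gene's own strand and the last base is next to the start. Capitals mark a match to TGACNNNGC, the core of the antioxidant response element bound by NRF2, a regulator of glutathione genes. The windows are chr8:93337210-93337459 (minus strand) for Ces1g, chr6:142804467-142804716 (minus) for Sult6b2, chr3:108044860-108045109 (minus) for Gstm4, chr3:107953467-107953716 (minus) for Gstm6 and chr3:107895604-107895853 (plus) for Gstm5.
Ces1g: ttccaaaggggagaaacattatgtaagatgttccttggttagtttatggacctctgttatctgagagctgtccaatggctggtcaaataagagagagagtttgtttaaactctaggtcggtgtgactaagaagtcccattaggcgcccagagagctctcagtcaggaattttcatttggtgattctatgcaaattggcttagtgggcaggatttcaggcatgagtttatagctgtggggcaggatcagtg
Sult6b2: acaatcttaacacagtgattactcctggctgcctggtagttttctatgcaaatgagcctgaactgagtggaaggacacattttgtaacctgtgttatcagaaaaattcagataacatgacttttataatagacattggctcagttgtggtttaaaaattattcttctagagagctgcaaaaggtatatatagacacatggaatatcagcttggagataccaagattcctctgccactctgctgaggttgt
Gstm4: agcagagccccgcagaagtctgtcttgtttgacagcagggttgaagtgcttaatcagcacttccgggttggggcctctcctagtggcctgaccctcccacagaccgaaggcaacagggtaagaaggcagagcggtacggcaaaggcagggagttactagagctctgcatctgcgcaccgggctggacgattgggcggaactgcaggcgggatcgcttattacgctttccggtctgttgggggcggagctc
Gstm6: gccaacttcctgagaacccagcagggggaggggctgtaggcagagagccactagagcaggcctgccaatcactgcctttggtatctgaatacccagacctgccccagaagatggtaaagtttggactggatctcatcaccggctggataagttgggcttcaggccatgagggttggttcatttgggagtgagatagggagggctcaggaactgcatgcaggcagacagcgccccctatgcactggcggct
Gstm5: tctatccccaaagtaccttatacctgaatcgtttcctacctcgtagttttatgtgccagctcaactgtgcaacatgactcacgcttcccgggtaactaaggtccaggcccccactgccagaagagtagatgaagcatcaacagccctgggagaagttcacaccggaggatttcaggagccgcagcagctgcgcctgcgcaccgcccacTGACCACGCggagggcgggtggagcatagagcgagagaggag

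Besides TGACNNNGC, the windows were searched on both strands for TCACNCCAC, a form of the sterol regulatory element that SREBP2 binds, and for GTTAAT, a short motif of the intestinal factor HNF1. The 3 motifs share no site in these windows. None of the 7 called genes held any of the 3 in this window, which says only that these letters are not there. TGACNNNGC was in 3 of 55 member windows (5.45%; Gsta3, Gstm5 and Mgst1) and in 10.1% of 27025 windows over all genes. TCACNCCAC was in 2 (3.64%; Ces3b and Sult6b1), against 1.03% of all windows. GTTAAT was in 10 (18.2%), against 6.54%, and the windows of Ugt2a3 and Sult2a3 held it 2 times each. The windows of Sult2a3 and Sult2a6 read alike around it, so windows of close copies are not independent of each other. Sult2a3, Sult2a6, Sult3a2 and Ugt3a1, which also held it, are among the dim members. A match is a run of letters and not a shown binding site.

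Outside the mu class, 1 of 14 glutathione S-transferases passed, a fall (7.14%, against 1.23% of all genes). Of the 2 alpha-class genes, Gsta3 was at 7.97, 8.62 and 7.95 in ISR2 arrays and at 7.70, 7.37 and 6.82 in wild type arrays. The groups were separated, but the log2 change of 0.88 ± 0.25 (SE; 95% interval 0.31 to 1.45) did not pass (adjusted p = 0.134). Gsta4, which detoxifies the lipid aldehyde hydroxynonenal, differed by 0.07 (95% interval -0.36 to 0.51; adjusted p = 0.925). Among 9 genes of the omega, pi, theta and kappa classes, it was Gstk1 that passed. Gstk1, found in mitochondria and peroxisomes, was at 9.36, 9.64 and 9.59 in ISR2 arrays, below 10.30, 10.01 and 10.14 in wild type arrays. The fall of 0.62 (log2 change -0.62 ± 0.14, SE; adjusted p = 0.0492) sat at the edge of the threshold, and without 1 array at a time its adjusted p was 0.0542 to 0.218.

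No remaining member of these classes passed. Gstp1 of the pi class was at 11.36, 11.38 and 11.85 in ISR2 arrays, and at 11.55, 11.49 and 11.75 in wild type arrays. Its ISR2 arrays lay on both sides of the wild type range (log2 change -0.07; 95% interval -0.44 to 0.30). Gsto1 of the omega class, which reduces dehydroascorbate, was lower in every ISR2 array than in any wild type array but by -0.29 only (adjusted p = 0.413). The other 6 genes ranged from -0.09 to 0.22. Of the 3 membrane-bound enzymes, Mgst1 was higher by 0.45 (95% interval 0.10 to 0.80; adjusted p = 0.230) with separated groups. Mgst2, which can make leukotriene C4, differed by -0.08 (adjusted p = 0.934) and Mgst3 by -0.13 (adjusted p = 0.780).

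**Figure D2:**
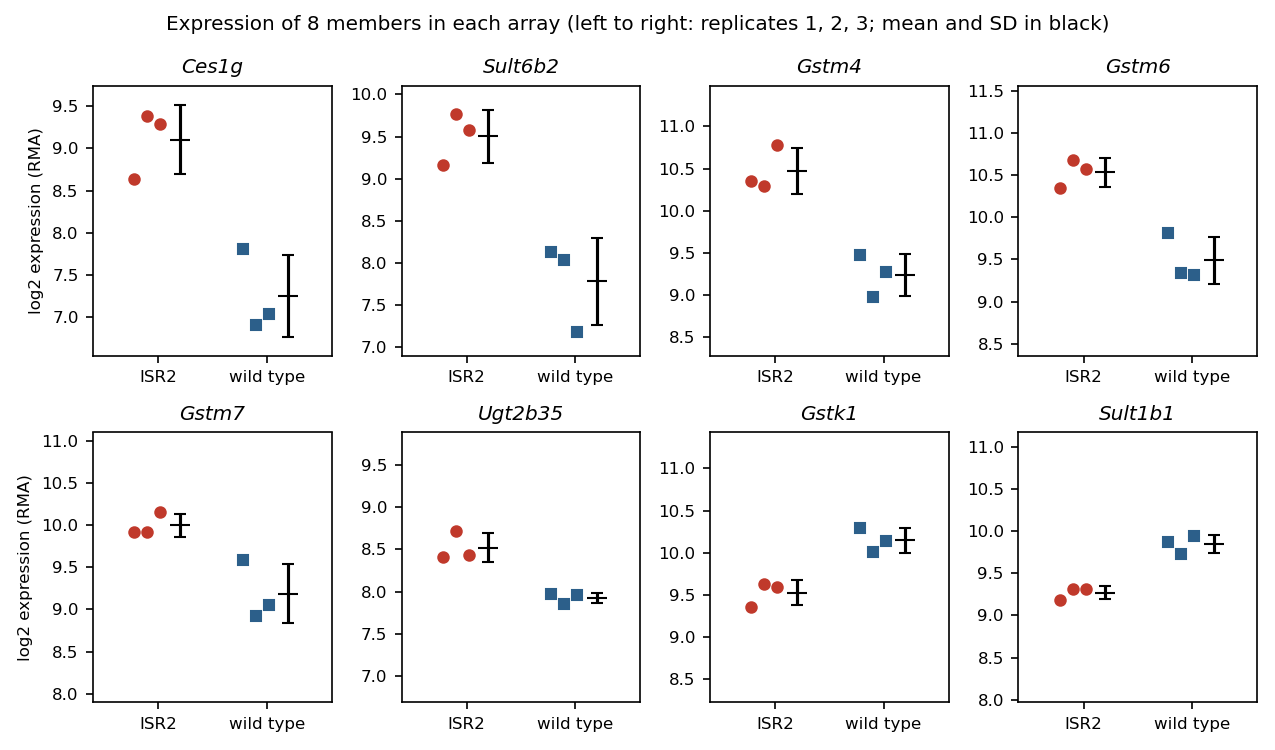
Log2 expression (vertical axis) in each ISR2 array (red circles, left) and each wild type array (blue squares, right) for the 7 members that passed and Gstm7, with group means and SDs in black (n = 3 arrays each) and the same axis length in each panel. In all 8 panels the groups do not overlap.

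Of 8 measured glucuronosyltransferases of the Ugt2 family, 1 rose (12.5%, against 1.79% of all genes) and none fell. Ugt2b35 rose, with 8.41, 8.72 and 8.43 in ISR2 arrays against 7.97, 7.85 and 7.95 in wild type arrays. The gap between the groups was wider than the spread within either, and the log2 change was 0.60 ± 0.13 (SE; adjusted p = 0.0492). Without 1 array at a time its adjusted p was 0.0935 to 0.183. Ugt2a3 was lower but did not pass: it was at 8.78, 9.50 and 9.23 in ISR2 arrays, all below 10.22, 9.91 and 9.89 in wild type arrays (log2 change -0.84 ± 0.19, SE; adjusted p = 0.0601). The lowest ISR2 value was in replicate 1. Ugt2a3 passed downward in 3 of 16 other fits, among them those without ISR2 replicate 2 (adjusted p = 0.0215) and without ISR2 replicate 2 and wild type replicate 3 together.

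Ugt2b5 had the widest scatter among ISR2 arrays of the 10 glucuronosyltransferases. Its ISR2 arrays ran from 6.84 to 8.00 and its wild type arrays from 6.55 to 6.80 (log2 change 0.68; 95% interval 0.10 to 1.26; adjusted p = 0.280). The groups were separated only by a narrow gap, and the change was 0.38 without ISR2 replicate 2. Ugt2b34 differed by -0.05 (95% interval -0.36 to 0.26), at 11.86 to 12.12 in ISR2 arrays and 11.87 to 12.19 in wild type arrays. Ugt2b36, Ugt2b37 and Ugt2b38 differed by 0.13 to 0.24, and Ugt2b1, Ugt3a1 and Ugt3a2 were dim. Genes of the Ugt2 cluster are close copies too, and shared probe signal was not tested.

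Sulfotransferases gave 1 rise (6.25%, against 1.79% of all genes) and 1 fall (6.25%, against 1.23%) among 16 measured genes. Sult6b2, to which no substrate is assigned here, was at 9.16, 9.77 and 9.57 in ISR2 arrays, against 8.13, 8.03 and 7.18 in wild type arrays. Every ISR2 array exceeded every wild type array by at least 1.03, and wild type replicate 3 was the lowest. The log2 change was 1.72 ± 0.26 (SE; 95% interval 1.14 to 2.30; adjusted p = 0.00665), and it was 1.42 to 1.89 without 1 array at a time. Sult1b1, whose human counterpart sulfates phenols and thyroid hormones, was at 9.18, 9.32 and 9.31 in ISR2 arrays, against 9.87, 9.73 and 9.94 in wild type arrays. Arrays of each group lay close together, and the log2 change was -0.58 ± 0.12 (SE; adjusted p = 0.0415). Its adjusted p was 0.0599 to 0.188 without 1 array at a time.

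Sult1d1, an enzyme of catecholamines in the mouse and the neighbour of Sult1b1 on the chromosome, was uneven. In ISR2 replicates 1, 2 and 3 it was at 10.19, 11.08 and 10.07, against 11.15, 10.93 and 10.77 in wild type replicates. ISR2 replicate 2 lay among the wild type arrays, and the log2 change was -0.50 ± 0.25 (SE; adjusted p = 0.457). Without ISR2 replicate 2 it was among the 2 members that passed downward, with Ugt2a3. Sult2b1, the cholesterol sulfotransferase, was at 10.15, 10.32 and 10.01 in ISR2 arrays and 10.37, 10.15 and 10.10 in wild type arrays, which overlapped (log2 change -0.05; 95% interval -0.36 to 0.26). Sult1a1, a phenol sulfotransferase, differed by 0.34 (adjusted p = 0.419), and the other 3 genes with a mean of at least 5, Sult1c2, Sult4a1 and Sult5a1, by -0.01 to 0.09.

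Carboxylesterases gave 1 rise among 16 measured genes (6.25%, against 1.79% of all genes), that of Ces1g. Ces1g, known in mouse liver as a hydrolase of triglyceride, was at 8.63, 9.39 and 9.30 in ISR2 replicates 1, 2 and 3, against 7.80, 6.90 and 7.04 in wild type replicates 1, 2 and 3. The groups were 0.83 apart at their nearest arrays, both of them replicate 1. The log2 change was 1.86 ± 0.27 (SE; 95% interval 1.25 to 2.46; adjusted p = 0.00543), the 74th highest of all genes tested. It was 1.68 to 2.13 without 1 array at a time.

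The neighbours of Ces1g in the Ces1 cluster did not pass. Ces1f, which lies next to it, was at 10.22, 10.57 and 10.60 in ISR2 arrays and at 10.33, 9.81 and 9.85 in wild type arrays, with wild type replicate 1 inside the ISR2 range (log2 change 0.47; 95% interval 0.07 to 0.87; adjusted p = 0.288). Ces1e was higher by 0.37 (95% interval -0.06 to 0.80). Ces1d, the triacylglycerol hydrolase of mouse liver and fat, was at 6.35, 7.57 and 6.54 in ISR2 arrays around 6.80, 7.06 and 6.86 in wild type arrays (log2 change -0.09; 95% interval -0.72 to 0.55). Ces1a, Ces1b and Ces1c differed by -0.19, -0.01 and 0.08. These genes are close copies as well, and shared probe signal was not tested.

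All 5 measured Ces2 genes had lower means in ISR2 arrays, but none passed in limma and none had an unadjusted p under 0.05. Lower means were common, in 12473 of the 19938 genes tested. Ces2e was at 11.59, 11.95 and 11.81 in ISR2 arrays and at 11.94, 11.71 and 11.98 in wild type arrays (log2 change -0.10; 95% interval -0.42 to 0.23). Ces2a, which hydrolyses di- and triglyceride in the mouse, varied by more than 1 unit within the ISR2 group, at 9.48, 11.09 and 10.51, beside 11.17, 10.24 and 10.43 in wild type arrays (log2 change -0.25; 95% interval -1.12 to 0.61). Ces2b, Ces2f and Ces2g differed by -0.26, -0.29 and -0.25. Ces3a and Ces3b were lower in every ISR2 array than in any wild type array, by -0.63 and -0.49 (adjusted p = 0.169 and 0.244), at levels near 5. Ces4a and Ces5a differed by 0.08 and 0.13. No probe set used here was annotated to Ces1h, Ces2c or Ces2h, which lie on the same chromosome, so these genes were not measured.

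**Figure D3:**
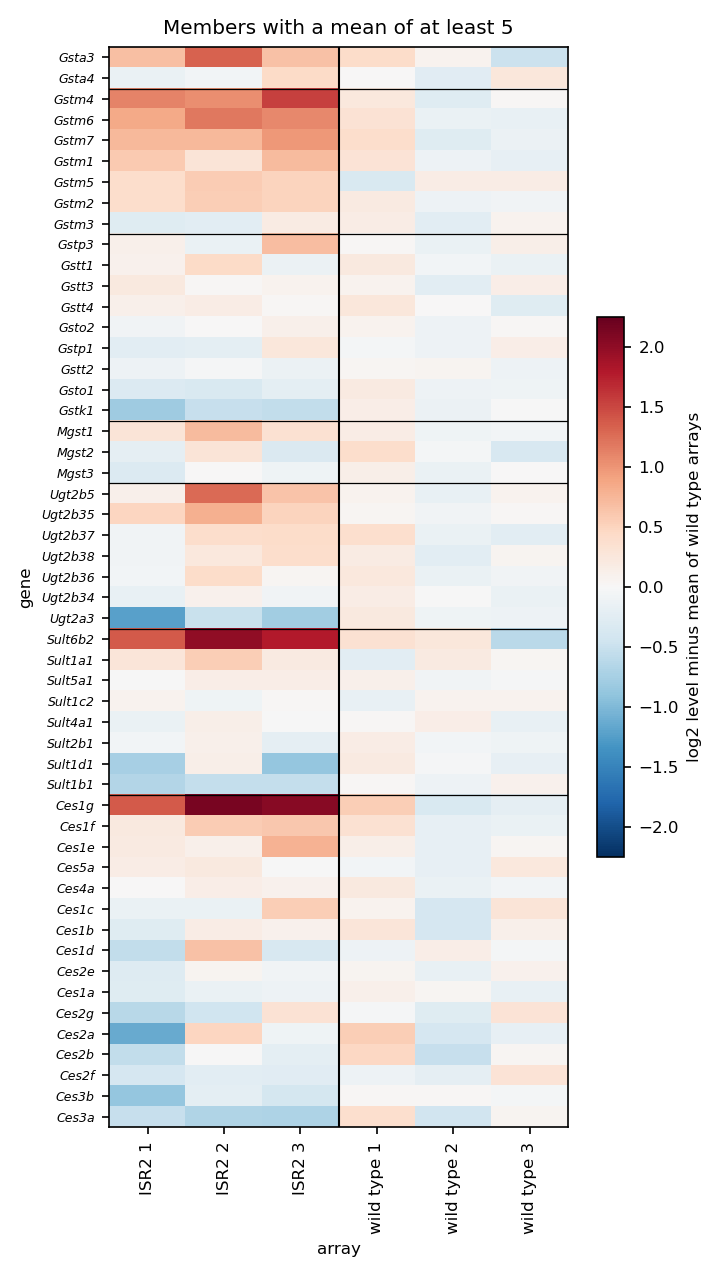
Level of the 52 members with a mean of at least 5 (rows, grouped by family and ordered by log2 change) in each of the 6 arrays (columns), as the log2 level minus the mean of the wild type arrays (red higher, blue lower). Gstm4, Gstm6, Sult6b2 and Ces1g are red in all 3 ISR2 arrays, while Ces2a and Sult1d1 differ between ISR2 arrays.

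Members tended to move together between arrays of a group. In the ISR2 group, replicate 1 was the lowest array for 37 of the 63 members (58.7%, against 22.6% of all genes tested) and replicate 2 the highest for 38 (60.3%, against 36.8%). Among wild type arrays, replicate 1 was the highest for 40 (63.5%, against 40.0%) and replicate 2 the lowest for 35 (55.6%, against 36.8%). Wild type replicate 2 had the highest mean of the stroma and smooth muscle markers in its group and wild type replicate 1 the lowest. In the ISR2 group the order was not the same. ISR2 replicate 2, with the highest mean of these markers, was also the highest array for most members. That mean followed the smooth muscle genes Myh11, Acta2 and Des. The collagen genes Col1a1 and Col3a1 were lowest in ISR2 replicate 2, at 7.82 and 7.50. The part of tissue makeup in this spread was not tested.

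**Figure D4:**
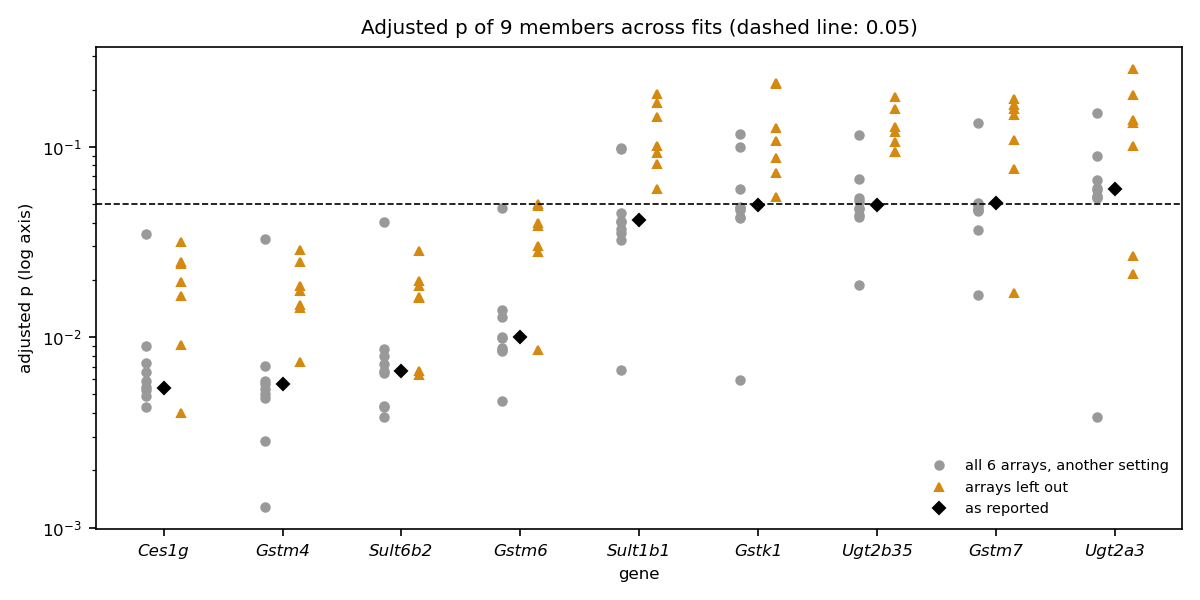
Adjusted p (vertical axis, log scale) of 9 members in the fit reported (black diamonds), in other settings with all 6 arrays (grey circles) and with arrays left out (orange triangles); the dashed line is 0.05. Ces1g, Gstm4, Sult6b2 and Gstm6 stay below the line in every fit, and Sult1b1, Gstk1, Ugt2b35, Gstm7 and Ugt2a3 lie on both sides of it.

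Genes that supply the conjugated groups rose in part. Of 11 measured, 3 rose (27.3%, against 1.79% of all genes) and none fell. Ugdh, which makes UDP-glucuronic acid, rose 1.73-fold (log2 change 0.79 ± 0.13 SE, adjusted p = 0.0110). Gclc, the catalytic subunit of the enzyme that limits glutathione synthesis, rose 1.81-fold (adjusted p = 0.00870). Gsr, glutathione reductase, rose 1.94-fold (adjusted p = 0.0183). Without 1 array at a time, Gsr lost its call in 4 of 6 fits (adjusted p up to 0.107), and Ugdh and Gclc in 1 each. Ugdh was at 12.27 to 12.50 in ISR2 arrays, above 11.52 to 11.75 in wild type arrays. The list held 1 rise without wild type replicate 1 or 2. Papss1 and Papss2, which make the sulfate donor PAPS, differed by 0.63 and -0.53 and did not pass (adjusted p = 0.127 and 0.229).

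Among 16 measured targets of NRF2, 7 rose (43.8%, against 1.79% of all genes), 9 did not pass and none fell. The median log2 change was 0.62 beside -0.06 over all genes. The malic enzyme gene Me1 rose 9.30-fold, the carbonyl reductase gene Cbr3 2.47-fold, the phosphogluconate dehydrogenase gene Pgd 2.20-fold and the transketolase gene Tkt 2.09-fold. Me1, Cbr3 and Pgd kept their calls in all 6 fits without 1 array, while Tkt lost its call in 3 (adjusted p up to 0.0751). The transaldolase gene Taldo1 rose 1.64-fold (adjusted p = 0.0381) and lost its call in 5 of these 6 fits (adjusted p up to 0.179). Gclc and Gsr are on this list too. Me1, Pgd, Tkt and Taldo1 also serve NADPH supply and sugar phosphate metabolism. The quinone reductase gene Nqo1, at 8.56, 8.92 and 8.62 in ISR2 arrays and 8.42, 8.12 and 7.98 in wild type arrays, did not pass (log2 change 0.53; adjusted p = 0.163). Nor did Hmox1, Gclm, Abcc1, Srxn1 and Txnrd1, with log2 changes of 0.50, 0.37, 0.21, 0.19 and 0.02. Slc7a11 and Ephx1 differed by -0.14 and -0.18 and did not pass either. Leaving out wild type replicate 1 left 3 rises on the list, and leaving out ISR2 replicate 1 left 4. There were also 4 without wild type replicate 2, and 4 with all rows tested.

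None of 13 receptors and transcription factors that govern these enzymes passed in limma, and 1 had an unadjusted p under 0.05. Of all 19938 genes tested, 2618 had an unadjusted p under 0.05. Nfe2l2, which encodes NRF2, differed by -0.25 (95% interval -0.56 to 0.06; adjusted p = 0.508). The xenobiotic receptor genes Nr1i2, Nr1i3 and Ahr differed by -0.11, 0.17 and 0.31 (adjusted p = 0.838, 0.852 and 0.424), and the intestinal factor genes Hnf4a and Cdx2 by 0.15 and 0.24. Transcript levels of these genes do not measure their activity.

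Of 9 exporters that carry conjugates and drugs out of cells, 1 rose: Abcc3, which exports glucuronides across the basolateral membrane, was at 10.49, 10.60 and 10.66 in ISR2 arrays, against 9.71, 9.58 and 9.46 in wild type arrays. The gap exceeded the spread of either group, and its rise of 1.99-fold (log2 change 0.99 ± 0.13, SE; adjusted p = 0.00256) held without each array. Of 13 other conjugation enzymes, Tpmt, thiopurine methyltransferase, rose 1.69-fold (adjusted p = 0.0175) and lost its call in 4 of 6 fits without 1 array (adjusted p up to 0.0828). Of 8 genes that undo or break down conjugates, Arsa, arylsulfatase A, and Ggct, of glutathione breakdown, rose 1.57-fold and 1.65-fold (adjusted p = 0.0360 and 0.0476), and each lost its call in 5 of these 6 fits (adjusted p up to 0.169 and 0.212). None of 14 other esterases and epoxide hydrolases passed in limma, and 5 had an unadjusted p under 0.05, as had 2618 of all 19938 genes. Beside these lists, 1.79% of all genes tested rose.

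**Figure D5:**
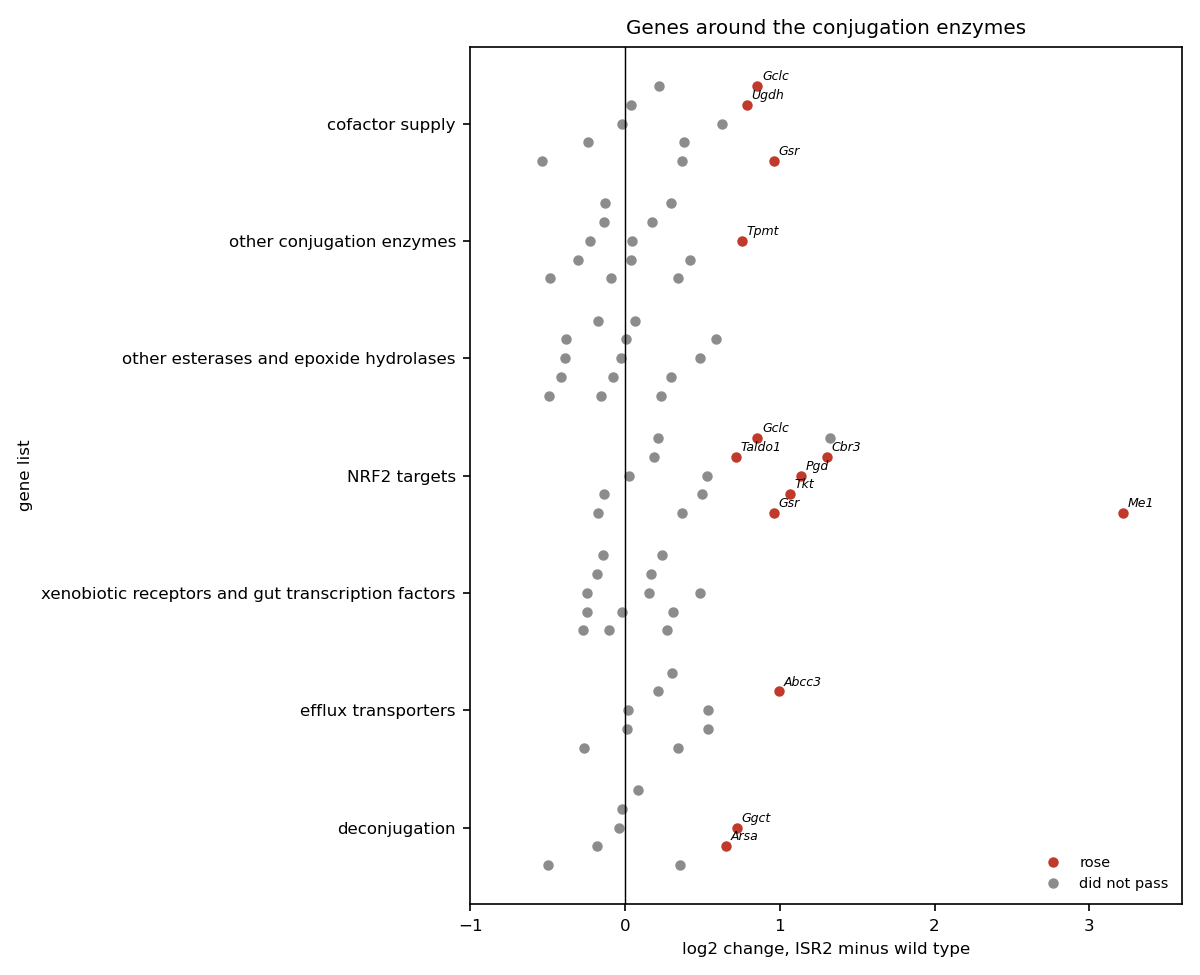
Log2 change (ISR2 minus wild type, horizontal axis) of each measured gene in 7 lists of genes around the conjugation enzymes (rows; the vertical scatter within a list has no meaning), red for genes that rose and grey for genes that did not pass. Me1 at 3.22 lies farthest to the right, and no gene of these lists fell.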

How the data were processed

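Total RNA of jejunal mucosa was labelled with biotin for Affymetrix whole-transcript arrays, per the labels' protocols. The deposited table holds log2 levels; the authors used RMA, per the submitters' processing notes. Its version, any filter and the build are not stated in the labels. RMA equalises arrays, so each change is measured against most other genes, and background left in dim genes can compress their changes.

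Of 35556 rows, 21789 had 1 gene symbol, 1621 several and 12146 none; 21698 were found by Entrez ID in the RefSeq gene table of GRCm38.p6, with 0 changes of symbol. For genes with several rows, including 2 members (Ces5a and Gstm3), the row with the highest mean over 6 arrays was kept, which left 19938 genes. Groups came from sample titles. limma 3.58.1 in R 4.3.3 (lmFit, eBayes) compared ISR2 with wild type without covariates; p-values are two-sided, with Benjamini-Hochberg adjustment across the 19938 genes and calls at 0.05. With 3 arrays per group, the number of arrays limits the precision. Data were also simulated for 19938 genes, of which 200 were changed, with noise drawn independently for each gene and array. There the test recovered 14% of genes changed by 0.5, 66% by 1 and 98% by 2 on the log2 scale. Differences that many genes share between arrays were not simulated, so these percentages need not hold for the real arrays.

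The members and lists were chosen with earlier results of these data known. The rule named every called member, those next to the threshold, up to 6 called genes per related list and set regulators. It also named the member whose probe set had the highest mean in each family, used only to choose names (Gsta4, Gstm3, Gstp1, Mgst2, Ugt2b34, Sult1d1 and Ces2e). Other members and list genes were named after their values were seen, to account for each family and list. Alternatives were eBayes with a trend or robust option, quantile normalization, median centring, array weights, a mean of at least 5, all rows tested, averaged probe sets, a block for the replicate number, other thresholds and arrays left out. Python 3.11.15 and matplotlib 3.10.9 drew the figures.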

Additional observations from a re-analysis of the deposited data

How the results depend on the processing

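The rises of Ces1g, Sult6b2, Gstm4 and Gstm6 kept direction and call under all 18 alternatives. The count of members that rose was 4 to 7 under 17 alternatives and 8 when calls needed 1.5-fold and 0.05 unadjusted. The count of members that fell was 5 with array weights, 1 with the replicate number as a block, and 0 with median centring or with all rows tested; without 1 array at a time it was 0 to 2, with 0 without ISR2 replicate 1, ISR2 replicate 3, wild type replicate 1 or wild type replicate 3, and 1 without wild type replicate 2. The cause of these differences was not tested. Without wild type replicate 3 and ISR2 replicate 2, 4 rose and 2 fell, but the 2 were Sult1d1 and Ugt2a3 in place of Gstk1 and Sult1b1. The median log2 change of members was -0.00 to 0.12 under 14 alternatives. Over all genes, 356 rose and 246 fell; these counts were 630 and 638 with array weights, 236 and 99 without ISR2 replicate 1, and the falls alone were 106 with all rows tested, 135 without ISR2 replicate 3, 85 when wild type replicate 1 and 128 when wild type replicate 2 was left out, 386 at an adjusted p of 0.10 and 404 by the 1.5-fold rule.

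With the replicate number as a block, 6 members rose (Gsta3 and Gstm7 were added and Ugt2b35 was lost, with an adjusted p of 0.0541) and Gstk1 was lost (0.0598). Deviations of same-numbered arrays correlated across genes with r = -0.02, 0.32 and 0.54 for numbers 1, 2 and 3. Arrays numbered 2 and 3 correlated best with their own number, while neither replicate 1 did. Whether the numbers pair the arrays was not tested, and the fit reported does not use them. No background value was used here, so which dim members were detected is not shown.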

Other observations

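Some genes of these families lie on 12 probe sets that several genes share and were therefore left out of the 63. Tested among all rows, none of the 12 passed (lowest adjusted p = 0.346 in limma), and their log2 changes ran from -0.17 to 0.48. An unadjusted p under 0.05 was seen in 3 of the 12, and in 2618 of 19938 genes in the fit reported. The 4 shared probe sets of the alpha-class glutathione S-transferases were all higher in ISR2 arrays, by 0.35 to 0.48 (adjusted p = 0.346 to 0.478); they share genes and so are not independent of each other. The 1 shared probe set of the Ugt1 cluster was at 9.09, 9.34 and 9.31 in ISR2 replicates 1, 2 and 3, against 9.16, 8.64 and 8.75 in wild type replicates 1, 2 and 3, with wild type replicate 1 inside the ISR2 range.

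Akr1b8, an aldo-keto reductase on the NRF2 list, was higher by 1.32 on the log2 scale without passing (adjusted p = 0.118). It was at 7.70, 6.24 and 7.56 in ISR2 replicates 1, 2 and 3, against 6.30, 5.51 and 5.74 in wild type replicates 1, 2 and 3, so ISR2 replicate 2 lay within the wild type range. Its 95% interval ran from 0.50 to 2.15.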
